A study of Mus musculus with 7 samples.

Results

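Keratins, the intermediate filament proteins of epithelial cells, were examined as messenger RNA in kidneys of mice that lack the lamin B receptor LBR, a protein of the inner nuclear membrane. Every gene symbol made of Krt, a number and at most 1 letter was taken, which gave 52 of the 24328 genes listed. Of these, 5 (Krt7, Krt8, Krt18, Krt19 and Krt20) are the simple epithelial keratins and 47 are keratins of other epithelia, skin and hair. The kidneys came from 3 LBR-null mice, homozygous for the Lbric-J allele (Lbric-J/ic-J), and from 1 WT littermate (Lbr+/+). All mice were C57BL/6J and 4 weeks old, and the allele is carried in every cell of the mouse. The labels state no sex and no treatment. LBR-null mice 4001 and 4007 and WT mouse 4009 gave 2 polyA RNA-seq libraries each and LBR-null mouse 4002 gave 1. Libraries were averaged within a mouse. With a single WT mouse, p-values rest on the spread among the LBR-null mice, and an exact two-sided permutation test of 3 mice against 1 cannot go below 0.5.

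Keratin filaments are built from pairs of 1 acidic type I chain and 1 basic type II chain, so an epithelial cell makes members of both types. Simple, single-layered epithelia use KRT8 and KRT7 (type II) with KRT18, KRT19 and KRT20 (type I), and in the kidney KRT8 and KRT18 are the usual pair of tubule cells while KRT7 and KRT19 mark collecting duct and urothelium. KRT5 pairs with KRT14 or KRT15 in basal cells of layered epithelia, KRT1 and KRT2 pair with KRT10 in the upper epidermis, KRT6 with KRT16 and KRT17 are made in wounded skin, and most of the remaining chains build hair and its sheaths.

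The libraries held 20694016 to 26333284 reads on genes, and 1 read was worth 0.787 to 1.15 normalized counts. Reads on keratin genes were 0.0705% to 0.0960% of each library. Lbr mRNA itself was at 322, 339.6 and 471 normalized counts in LBR-null mice 4001, 4002 and 4007 and at 398 in the WT mouse, so its level does not check the genotype labels. Xist was at 5785 and 9940.2 normalized counts in mice 4001 and 4007 but at 65.3 in mouse 4002 and 35.5 in the WT mouse, and the Y-linked Ddx3y was at 141 and 44.3 against 1516 and 1284. LBR-null mice 4001 and 4007 thus stood apart from mouse 4002 and the WT mouse in sex-linked transcripts. Genotype and this difference cannot be told apart for those 2 mice, and mouse 4002 is therefore named beside most keratins below. The kidney markers were all present, with Umod, the uromodulin of the thick ascending limb, at 20476 to 65565 and Aqp2, the water channel of the collecting duct, at 19155 to 35005 normalized counts per mouse. In bulk kidney, fewer cells of a type and less RNA per cell cannot be told apart.

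In the mm9 gene models (GENCODE vM1) 51 of the 52 symbols were matched, Krt72 by an entry listed as Krt72-ps. They lay in 2 clusters, with 27 type I genes in 1.04 Mb at chr11:99094075-100131185 and 23 type II genes plus Krt18 in 0.685 Mb at chr15:101177875-101862457. Krt8 (chr15:101827142-101834773, minus strand) and Krt18 (chr15:101858647-101862457, plus strand) are neighbours whose starts lie 23873 bases apart and point away from each other. A RefSeq table of promoters held 35 of the 52 genes, Krt13 with 2 starts, and lacked Krt222, Krt33a, Krt35, Krt15, Krt19, Krt16, Krt17, Krt80, Krt83, Krt81, Krt86, Krt85, Krt6b, Krt6a, Krt74, Krt1 and Krt4. The 250 bases before each start were taken, and all 36 windows occurred once, without a mismatch, on their mm9 chromosome, which gave their mm9 positions.

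None of the 36 keratin windows (0%) reached a GC content of at least 50% together with an observed over expected CpG ratio above 0.6, against 10189 of 32851 windows of all genes (31.0%). Their median CpG ratio was 0.273, against 0.373 over all windows, and Krt7 came near to the limit with a GC content of 66.0% and a ratio of 0.596. The letters TATAAA were found on either strand in 17 keratin windows (47.2%, against 12.4% of all windows). They lay on the gene's own strand 20 to 40 bases before the start in 13 (36.1%, against 1.99%). These were the windows of Krt25, Krt26, Krt28, Krt10, Krt12, Krt20, Krt40, Krt34, Krt31, Krt32, Krt71, Krt73 and Krt76. The letters GGGCGG were found in 2 keratin windows (5.56%, against 32.7%), those of Krt7 and Krt75, and TGANTCA in 2 (5.56%, against 6.75%), both of Krt13. Both strands were searched, no keratin window held more than 1 of the 3 motifs, and genes of 1 cluster are related copies, so these shares are a description.
The sequences show the window of 6 genes on which the results below turn, 5′ to 3′ along the gene and ending just before its start, from the RefSeq table with mm9 positions. Krt8 and Krt18 are the neighbours that differed from each other. Krt20 is the simple keratin with TATAAA among those with a window, which Krt19 lacks. Krt5 had lower values in LBR-null kidneys and Krt2 and Krt27 higher ones, but none of them passed the limma test with all mice. The direction of Krt2 and Krt27 was fixed by the filter on low values, as described below. Capitals mark TATAAA, found 29 bases before the start of Krt20 and 15 bases before that of Krt27.
Krt8, chr15:101834774-101835023, minus strand: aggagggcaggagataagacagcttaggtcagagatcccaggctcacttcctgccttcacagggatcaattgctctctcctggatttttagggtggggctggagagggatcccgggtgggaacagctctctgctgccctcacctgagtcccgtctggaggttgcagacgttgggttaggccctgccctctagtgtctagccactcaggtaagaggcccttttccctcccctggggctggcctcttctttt
Krt18, chr15:101858397-101858646, plus strand: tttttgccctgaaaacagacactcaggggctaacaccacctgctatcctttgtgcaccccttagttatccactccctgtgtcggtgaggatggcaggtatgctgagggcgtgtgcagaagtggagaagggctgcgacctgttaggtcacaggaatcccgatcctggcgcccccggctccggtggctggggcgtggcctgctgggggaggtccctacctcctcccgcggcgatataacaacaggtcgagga
Krt20, chr11:99299468-99299717, minus strand: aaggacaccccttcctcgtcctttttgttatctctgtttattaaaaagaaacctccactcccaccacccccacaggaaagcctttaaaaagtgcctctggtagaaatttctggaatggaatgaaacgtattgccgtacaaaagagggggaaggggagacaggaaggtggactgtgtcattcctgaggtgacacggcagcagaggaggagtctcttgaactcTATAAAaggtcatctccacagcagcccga
Krt5, chr15:101543337-101543586, minus strand: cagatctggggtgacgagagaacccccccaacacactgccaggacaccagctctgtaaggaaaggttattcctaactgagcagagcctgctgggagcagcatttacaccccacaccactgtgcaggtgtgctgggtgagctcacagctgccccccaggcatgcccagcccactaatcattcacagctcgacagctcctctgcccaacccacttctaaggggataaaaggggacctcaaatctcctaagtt
Krt2, chr15:101648601-101648850, minus strand: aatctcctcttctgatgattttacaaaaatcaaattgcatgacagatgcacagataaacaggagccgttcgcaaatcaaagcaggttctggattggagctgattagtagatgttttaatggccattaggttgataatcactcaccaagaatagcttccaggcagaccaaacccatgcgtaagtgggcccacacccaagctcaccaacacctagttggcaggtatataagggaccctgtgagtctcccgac
Krt27, chr11:99212433-99212682, minus strand: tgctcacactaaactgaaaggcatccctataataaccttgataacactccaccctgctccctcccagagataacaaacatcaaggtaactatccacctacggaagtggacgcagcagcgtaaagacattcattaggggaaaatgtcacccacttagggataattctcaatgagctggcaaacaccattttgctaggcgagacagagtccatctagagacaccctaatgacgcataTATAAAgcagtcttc
None of the 3 motifs occurs in the windows of Krt8, Krt18, Krt5 or Krt2, which says only that these letters are not there.

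The simple epithelial keratins made up most keratin mRNA in both genotypes. Their 5 genes summed to 16298, 17512 and 14699 normalized counts in LBR-null mice 4001, 4002 and 4007 (16169.8 ± 1411, SD, n = 3) and to 14876 in the WT mouse. The 47 other keratins together summed to 981, 1431 and 927 (1113 ± 277, SD, n = 3) against 1444. The sum of the simple keratins was thus 1.09 times the WT value and that of the others 0.771 times. The WT sum lay within the range of the LBR-null mice for the simple keratins and just above it for the others, where mouse 4002 was nearest to WT.

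Krt18, the type I partner of KRT8, had the smallest p of the simple keratins. Krt18 was at 5338 and 4346 normalized counts in the libraries of LBR-null mouse 4001, 3860.5 in mouse 4002, and 4113 and 4273 in mouse 4007, against 2409 and 2297 in the WT libraries. All 5 LBR-null libraries lay above both WT libraries, with that of mouse 4002 nearest to WT. The mean over mice was 4299 ± 499 (SD, n = 3) against 2353, a 1.83-fold difference. In limma the log2 fold change was 0.86 with an SE of 0.26 (95% interval 0.23 to 1.49), an unadjusted p of 0.015 and an adjusted p of 0.158, so Krt18 did not pass the test. The unadjusted p of edgeR was 0.0254 and that of DESeq2 0.00494 (adjusted p 0.192 and 0.0648).

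Krt8, the type II partner and neighbour of Krt18, showed no such difference. Its libraries were at 5528, 4747, 5276, 4273 and 4342 normalized counts in LBR-null mice, in the order used for Krt18, and at 5333 and 5323 in the WT mouse. The WT values lay inside the range of the LBR-null libraries. The log2 fold change was -0.12 (95% interval -0.78 to 0.53, limma adjusted p 0.844). Krt7, the type II chain of ducts and urothelium, was at 6354, 5306, 7690.0, 5477 and 5774 against 6428 and 6328. Its groups overlapped too, with mouse 4002 highest, and the log2 fold change was -0.01 (95% interval -0.75 to 0.72, limma adjusted p 0.987). Differences within these intervals were not excluded with these mice.

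Krt19 and Krt20, the other type I chains, lay below WT where Krt18 lay above. Krt19, the smallest type I keratin, was at 525, 413, 672, 526 and 561 normalized counts in LBR-null libraries and at 779 and 778 in WT libraries, with every LBR-null library below both and mouse 4002 nearest. Its mean was 561 ± 103 (SD, n = 3) against 778 (log2 fold change -0.49, SE 0.29, limma adjusted p 0.418). Krt20, a keratin of gut and of the umbrella cells of urothelium, was at 26.4, 13.3, 14.6, 34.5 and 24.6 against 37.8 and 40.7, again with no overlap. Its mean was 21.3 ± 7.57 (SD, n = 3) against 39.3 (log2 fold change -0.90, SE 0.55, limma adjusted p 0.427). Neither passed the test.

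**Figure D1:**
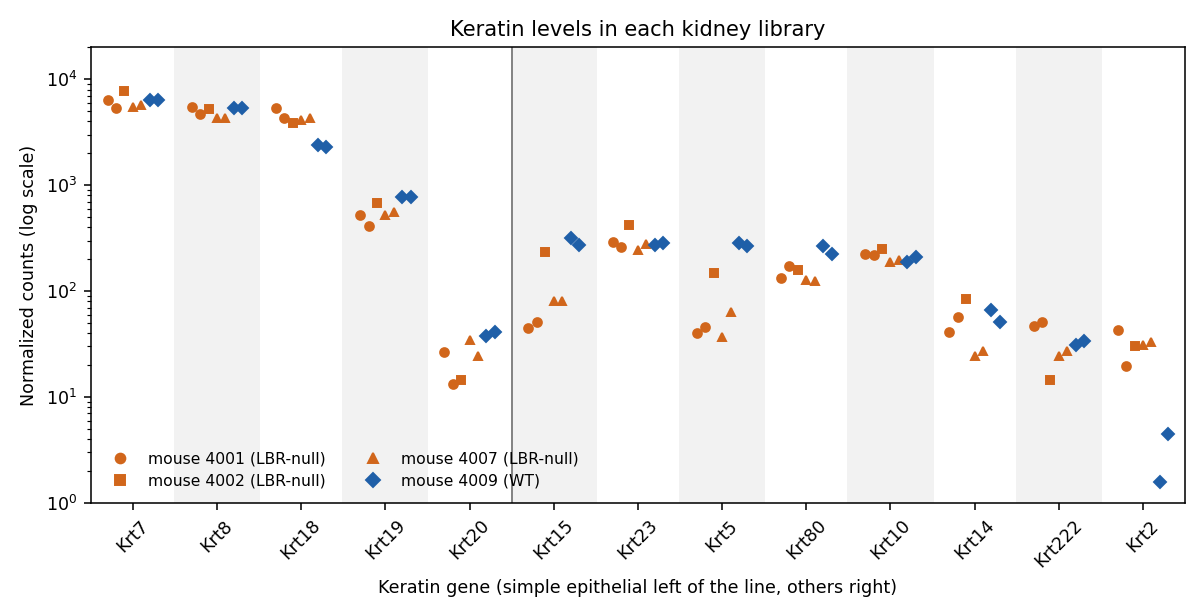
Normalized counts (log axis) of the 5 simple keratins and of the other keratins at 20 or more in the WT mouse, with Krt2 added, 1 point a library, orange for LBR-null and blue for WT mice. Krt18 and Krt2 have all LBR-null libraries above WT, and Krt19, Krt20, Krt15, Krt5 and Krt80 have all below. The library of mouse 4002 lies nearest to WT in Krt5, Krt15, Krt18 and Krt19.

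Since KRT8 and KRT18 assemble as a pair, their mRNAs were compared as levels per kilobase of coding length. The level of Krt18 per kilobase was 1.09, 0.848 and 1.13 times that of Krt8 in LBR-null mice 4001, 4002 and 4007 (1.02 ± 0.152, SD, n = 3) and 0.512 times in the WT mouse. By library the ratio was 0.848 to 1.14 in LBR-null and 0.4999 to 0.523 in WT mice. Krt18 thus stood near the level of Krt8 in LBR-null kidneys and below it in the WT kidney. Over the simple keratins the summed type I level per kilobase was 0.545, 0.392 and 0.537 times the type II level (0.491 ± 0.0858, SD, n = 3) against 0.305, and the summed type II level was 7993 ± 1103 (SD, n = 3) against 8276. The summed type I level was 3868 ± 315 (SD, n = 3) against 2528. Krt7 per kilobase was 1.22, 1.56 and 1.40 times Krt8 against 1.28 in WT. The order of Krt7 and Krt8 rests on the length used, since per kilobase of spliced length, which counts the long untranslated part of the Krt7 model, Krt7 was at 0.5004 to 0.643 times Krt8 in LBR-null mice and 0.528 in WT.

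**Figure D2:**
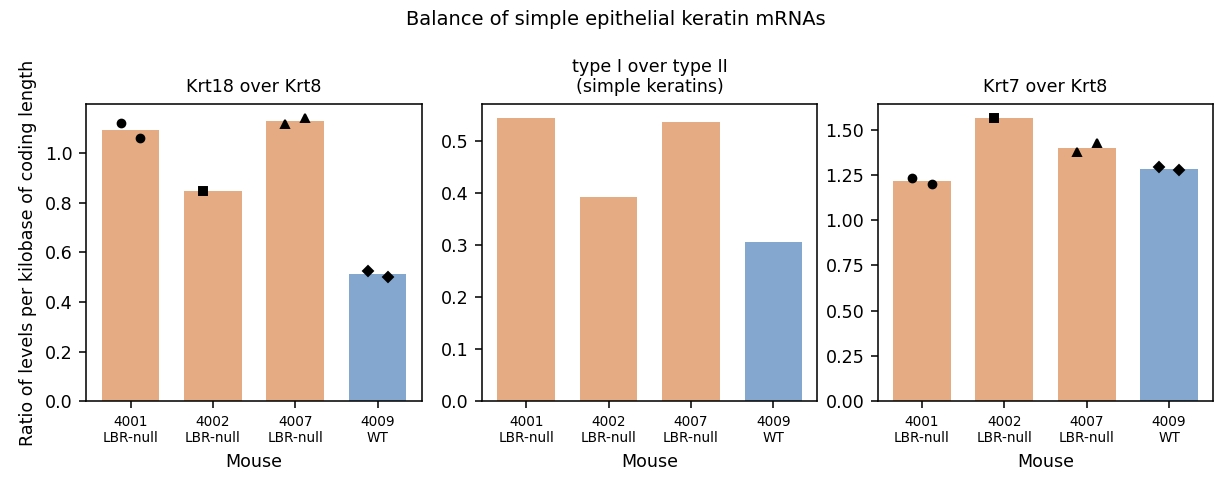
Ratios of levels per kilobase of coding length in each mouse (bars, from 0) and, for pairs of genes, in each library (points). Krt18 over Krt8 is 0.848 to 1.13 in LBR-null mice and 0.512 in the WT mouse, while Krt7 over Krt8 is 1.22 to 1.56 against 1.28.

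Of the 3 keratins of the basal layer, the dividing cells that rest on the basement membrane of layered epithelia, Krt5 and Krt15 were lower in LBR-null kidneys, least so in mouse 4002, and Krt14 overlapped. Krt5, their type II chain, was at 40.2 and 46.1 normalized counts in mouse 4001, 148 in mouse 4002, and 37.3 and 62.9 in mouse 4007, against 282 and 269 in WT libraries. Each LBR-null library lay below both WT libraries, and mouse 4002 lay between the other LBR-null mice and WT. The mean was 80.4 ± 58.6 (SD, n = 3) against 275, 3.43-fold lower. In limma the log2 fold change was -1.99 with an SE of 0.71, an unadjusted p of 0.0287 and an adjusted p of 0.205, so Krt5 did not pass the test.

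Krt15, a type I chain of basal and progenitor cells, also had mouse 4002 between the other LBR-null mice and WT. It was at 44.8, 50.6, 234, 80.1 and 80.2 normalized counts in LBR-null libraries and at 319.7 and 270.5 in WT libraries, with no overlap. The mean was 121 ± 99.5 (SD, n = 3) against 295, 2.45-fold lower (log2 fold change -1.60, SE 0.82, limma adjusted p 0.353). Krt14, the other type I partner of KRT5, was at 41.3, 56.8, 84.3, 24.2 and 27.3 against 66.1 and 50.7, and its groups overlapped. Its log2 fold change was -0.29 (95% interval -1.90 to 1.32). Per kilobase of coding length Krt14 was at 1.36, 0.683 and 0.617 times Krt5 in LBR-null mice 4001, 4002 and 4007 and at 0.254 times in WT. Without mouse 4002 the log2 fold change was -2.54 for Krt5 and -2.24 for Krt15. LBR-null mice 4001 and 4007, which were left in that fit, both differ from the WT mouse in sex-linked transcripts. Genotype and this difference cannot be told apart there, and the lowest adjusted p given next for each gene came from that fit. Over the alternatives tried the adjusted p ran from 0.0301 to 0.475 for Krt5 and from 0.0486 to 0.647 for Krt15. The part of the sex-linked difference between the mice in these values was not tested.

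Markers of urothelium, the lining of the renal pelvis, in which basal cells make KRT5, were read beside them. Of 5 uroplakins, membrane proteins of umbrella cells, Upk1a, Upk1b, Upk2 and Upk3a were lower in each LBR-null library than in either WT library, and Upk3b was higher. Upk2 was at 25.9, 56.7 and 35.4 normalized counts in LBR-null mice 4001, 4002 and 4007 against 148 (log2 fold change -1.96, limma adjusted p 0.130, DESeq2 adjusted p 0.0225), and mouse 4002 was again nearest to WT. The summed uroplakins were at 827 to 1398 in LBR-null and 1163 to 1217 in WT libraries. That sum includes Upk3b, the most abundant of the 5, at 583, 839 and 499 in LBR-null mice 4001, 4002 and 4007 against 348. Foxa1 and Sprr1a, other genes of urothelium, were also lower throughout, at 17.3, 48.1 and 41.5 against 79.2 and at 86.8, 328 and 189.7 against 506. Trp63, the transcription factor of basal cells, overlapped (42.6, 73.1 and 70.6 against 66.0), as did Psca, an antigen of urothelium (374, 2638 and 1333 against 1015). Of the 11 urothelial genes 6 thus lay below both WT libraries (21.4% of all genes did) and 2, Upk3b and Gsdmc, above (22.2%), and Sprr2a1 was at 0 throughout. Of the 9 with a WT value of at least 5, 1 (Upk3b, log2 fold change 0.84) was higher and 1 (Upk2) lower at an unadjusted limma p under 0.05, with a median of -0.72. Of all genes with such a WT value 6.83% were higher and 8.7% lower, with a median of -0.04. Gsdmc, at 10.2, 10.3 and 14.3 against 0.452, was tested through its LBR-null values alone and had to be higher. How much urothelium each kidney sample held was not tested.

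Of the keratins of other epithelia with sizeable levels, Krt80 was lower and Krt10, Krt23 and Krt222 overlapped. Krt80, a type II chain of many epithelia, was at 134, 171, 159, 127 and 126 normalized counts in LBR-null and 265 and 223 in WT libraries. The groups did not overlap, and mouse 4002 lay with the other LBR-null mice (log2 fold change -0.74, SE 0.32, limma adjusted p 0.285). Krt10, the type I chain of upper epidermis, was at 224, 219, 248, 189 and 197 against 189.8 and 209 (log2 fold change 0.14, 95% interval -0.60 to 0.88). Krt23, a type I keratin, was at 293, 261, 420.4, 247 and 281 against 275 and 286, with mouse 4002 alone high (log2 fold change 0.16, 95% interval -0.70 to 1.02). Krt222, a short keratin-like gene, was at 47.1, 51.5, 14.6, 24.2 and 27.3 against 30.7 and 33.5 (log2 fold change -0.26, 95% interval -1.95 to 1.43). Krt4, a chain of mucosal lining, was at 4.59, 1.77, 11.2, 3.73 and 14.6 against 11.02 and 10.9 (log2 fold change -0.57, 95% interval -2.42 to 1.28).

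Krt2, the type II chain of late epidermal differentiation, was at 42.5 and 19.5 normalized counts in mouse 4001, 30.1 in mouse 4002, and 30.7 and 32.8 in mouse 4007, against 1.57 and 4.52 in WT libraries. All LBR-null libraries lay above both WT libraries. The averaged values of the 3 LBR-null mice were close (31.0 ± 0.841, SD, n = 3, against 3.05), although the libraries averaged for mouse 4001 were at 42.5 and 19.5. These values are 163 reads over 5 LBR-null and 7 reads over 2 WT libraries, a 10.4-fold ratio with a 95% counting interval of 4.92 to 26.2. Krt2 had a WT value under 5 and so reached the filter on low values (a mean of at least 5 over the mice) through its LBR-null values alone. Its direction was thus fixed, and its fit values are given as a description. In limma the log2 fold change was 2.98 with an SE of 0.47 and an adjusted p of 0.0906, short of the threshold. DESeq2 called it (log2 fold change 3.35, adjusted p 0.00301) and edgeR did not (adjusted p 0.0919), and without mouse 4001 or mouse 4002 limma called it as well (adjusted p 0.0243 and 0.0359). Over all alternatives its adjusted p ran from 0.00301 to 0.259, and its log2 fold change was 2.53 without WT library 1 and 3.63 without WT library 2. KRT10, its partner in epidermis, did not share the difference in mRNA, as given above, and Krt1 was at 2.30 to 6.52 in LBR-null and 0.787 and 7.24 in WT libraries.

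Low-level keratins of hair and its sheaths had higher sums in LBR-null kidneys, as low genes in general had. All 6831 genes with a read and a mean under 20 summed to 1.47 times the WT value in LBR-null mice, at 34160 to 42754 normalized counts against 26134 to 26216 by library, and the 34 keratins among them to 1.96 times (91.998 to 133 against 41.7 to 71.5). The 10 genes of the hair follicle root sheath, the layers around the growing hair, summed to 40.1, 33.5 and 43.7 normalized counts in LBR-null mice 4001, 4002 and 4007 (39.1 ± 5.17, SD, n = 3) and to 17.9 in the WT mouse. The 15 hair shaft genes summed to 24.5, 29.2 and 43.4 (32.4 ± 9.82, SD, n = 3) against 8.24. The LBR-null libraries lay above the WT libraries in both sums, at 33.5 to 46.5 against 14.96 to 20.8 and at 12.6 to 51.2 against 4.72 to 11.8. These are 214 and 180 reads over 5 libraries against 42 and 19 over 2. The 5 genes of mucosa and cornea overlapped, at 14.9 to 30.1 against 17.2 to 18.9.

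**Figure D3:**
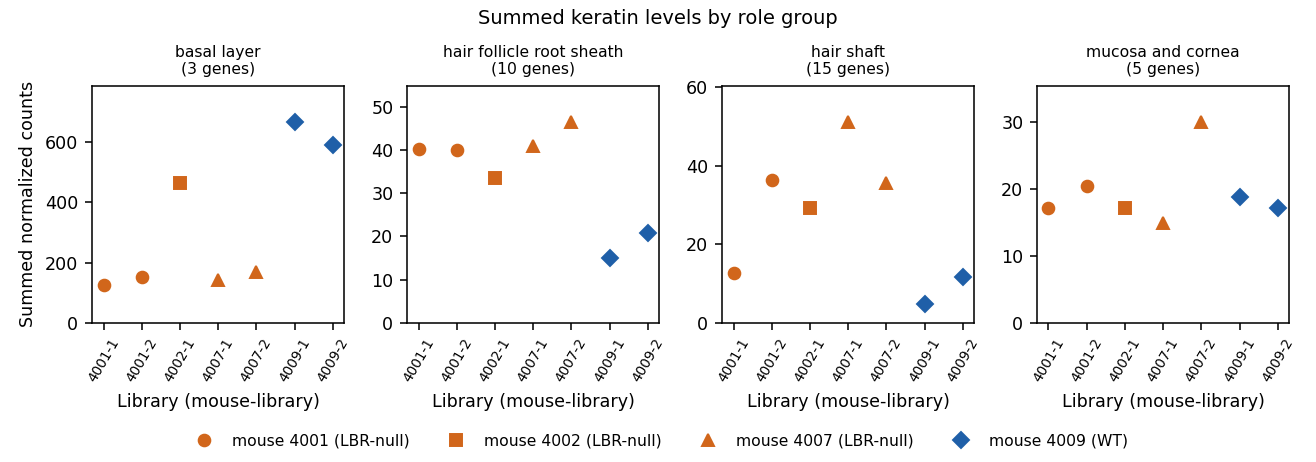
Summed normalized counts of 4 role groups in each library, with axes from 0, orange for LBR-null and blue for WT mice. The basal layer sum is 126 to 466 in LBR-null and 589.8 to 668 in WT libraries, the root sheath sum 33.5 to 46.5 against 14.96 to 20.8, the hair shaft sum 12.6 to 51.2 against 4.72 to 11.8, and the mucosa and cornea sum overlaps.

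Among single genes of these groups Krt82, Krt27, Krt25, Krt83 and Krt73 had no overlap between genotypes. Of these, Krt82, Krt27, Krt25 and Krt83, and Krt84 besides, were tested through their LBR-null values alone as Krt2 was, so their direction was fixed and their fit values are a description. Krt82, a type II chain of the hair cuticle, was at 5.74, 14.2, 11.2, 10.2 and 5.47 normalized counts in LBR-null and 0 and 1.81 in WT libraries. This is 51 reads against 2, a ratio of 11.4 with a 95% counting interval of 2.99 to 96.3 (limma log2 fold change 2.47, SE 0.59, adjusted p 0.115). Krt27, a type I chain of the inner root sheath, was at 13.8, 13.3, 6.02, 11.2 and 13.7 against 0.787 and 2.71 (limma log2 fold change 2.01, SE 0.67, adjusted p 0.185). Krt25, another type I chain of the inner root sheath, was at 3.44 (mouse 4002) to 13.8 against 0.787 and 1.81, with 44 reads against 3, a ratio of 6.53 with a counting interval of 2.09 to 32.9. Krt83, a hair cortex chain, was at 3.44 to 17.7 (6.88 in mouse 4002) against 2.36 and 2.71 (log2 fold change 1.41, 95% interval -0.22 to 3.05). Krt73, an inner root sheath chain, was at 1.72 (mouse 4002) to 6.21 in LBR-null libraries and had no read in WT libraries, at least 2.82-fold higher against a floor of 3 reads over the WT group. Krt84 overlapped, at 0 to 12.1 (6.02 in mouse 4002) against 0 and 4.52 (log2 fold change 1.20). The WT libraries differed at these levels, so that leaving out WT library 1 or 2 gave log2 fold changes of 0.44 or 2.91 for Krt84, 1.91 or 3.40 for Krt82 and 1.58 or 2.64 for Krt27.

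Krt12 and Krt24, keratins outside hair, followed the same order, and Krt28 the opposite one. Both Krt12 and Krt24 had a WT value under 5, so their direction, too, was fixed by the filter. Krt12, the type I chain of corneal epithelium, was at 5.16 (mouse 4002) to 14.2 against 0.905 and 2.36 (log2 fold change 1.77, SE 0.65, limma adjusted p 0.220). Krt24, a type I keratin, was at 9.46 (mouse 4002) to 17.2 against 1.57 and 8.14 (log2 fold change 1.10, SE 0.57, limma adjusted p 0.362), and its log2 fold change was 0.46 without WT library 1 and 2.28 without WT library 2. Krt28, a type I chain of the inner root sheath with TATAAA before its start as Krt25 has, was at 0 to 5.59 (5.16 in mouse 4002) in LBR-null and 7.87 and 8.14 in WT libraries, below both.

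Of the other members, Krt33a, Krt34, Krt35, Krt6a and Krt6b had no read in any library. The wound keratins were thus represented by Krt16 and Krt17 alone, with 6 reads over 5 LBR-null and 7 over 2 WT libraries. Reads in LBR-null mice only were found for 12 members and in the WT mouse only for 1 (Krt13), with 5 libraries read against 2. All 13 are among the 26 members with a read and a mean under 5, which makes 46.2% and 3.85% of those. Of all 4185 such genes 34.4% had reads in LBR-null mice only and 5.16% in the WT mouse only. Reads of near copies such as Krt81, Krt83 and Krt86, or Krt14, Krt16, Krt17 and Krt42, could have been split between them in the counting, so these levels are uncertain. The 26 members with a read and a mean under 5 summed to 28.7 to 47.0 in LBR-null and 22.8 to 38.0 in WT libraries, which overlap, and to 1.28 times the WT value by mouse, against 1.58 times over all such genes.

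Counts over the whole family were read against those over all genes. limma called no keratin at an adjusted p under 0.05 and 2-fold, as it called 0% of 17283 genes, and edgeR called none (0.162% of all genes). DESeq2 called 1 up (Krt2, against 3.08% of all genes up) and 0 down (3.33%). Of the 21 keratins tested, 5 (Krt27, Krt12, Krt82, Krt2 and Krt18) were higher at an unadjusted limma p under 0.05, where 10.7% of all genes were, and 1 (Krt5) was lower, where 8.05% were. Of the 21, 8 passed the filter on low values through the LBR-null mice, having a WT value under 5, and such genes had to be higher: 4 of these 8 (50%) reached that p, against 58.8% of all genes of this kind. Of the 13 with a WT value of at least 5, 1 was higher (7.69%, against 6.83% of all such genes) and 1 lower (7.69%, against 8.7%). The median log2 fold change of these 13 was -0.29, and that of all such genes -0.04. The shares of keratins were thus near the background at both levels.

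By size alone, 24 of the 47 keratins with a read were at least 2-fold higher in LBR-null mice (22.7% of all genes) and 6 at least 2-fold lower (8.8%). Most of these were low genes. Of 34 keratins with a read and a mean under 20, 23 (67.6%) were 2-fold up, where 54% of all such genes were, and 4 (11.8%) were 2-fold down, where 13.2% were. All LBR-null libraries lay above both WT libraries in 7 of the 34 (20.6%, against 20.7% of all such genes) and below both in 1 (2.94%, against 6.32%). With 5 normalized counts added to both groups, 4 of the 47 were 2-fold up (8.51%, against 8.89% of all genes) and 2 down (4.26%, against 5%). Of the 21 with a mean of at least 5, 8 were up (38.1%, against 14.5% of all such genes) and 2 down (9.52%, against 7.04%), and the 8 are those with a WT value under 5, whose direction was fixed. All LBR-null libraries lay above both WT libraries in 9 keratins (Krt24, Krt25, Krt27, Krt12, Krt83, Krt82, Krt73, Krt2 and Krt18, against 22.2% of all genes) and below both in 6 (Krt28, Krt20, Krt15, Krt19, Krt80 and Krt5, against 21.4%). Among all low genes, too, more were 2-fold up than down. The 2-fold counts moved with the mouse, and so did those over all genes. Mouse 4001 alone had 17 of 41 keratins up (41.5%, against 20.6% of all genes) and 7 down (17.1%, against 14.4%). Mouse 4002 had 12 of 38 up (31.6%, against 16.9%) and 8 down (21.1%, against 11.3%), and mouse 4007 had 22 of 44 up (50%, against 23%) and 9 down (20.5%, against 11.1%).

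**Figure D4:**
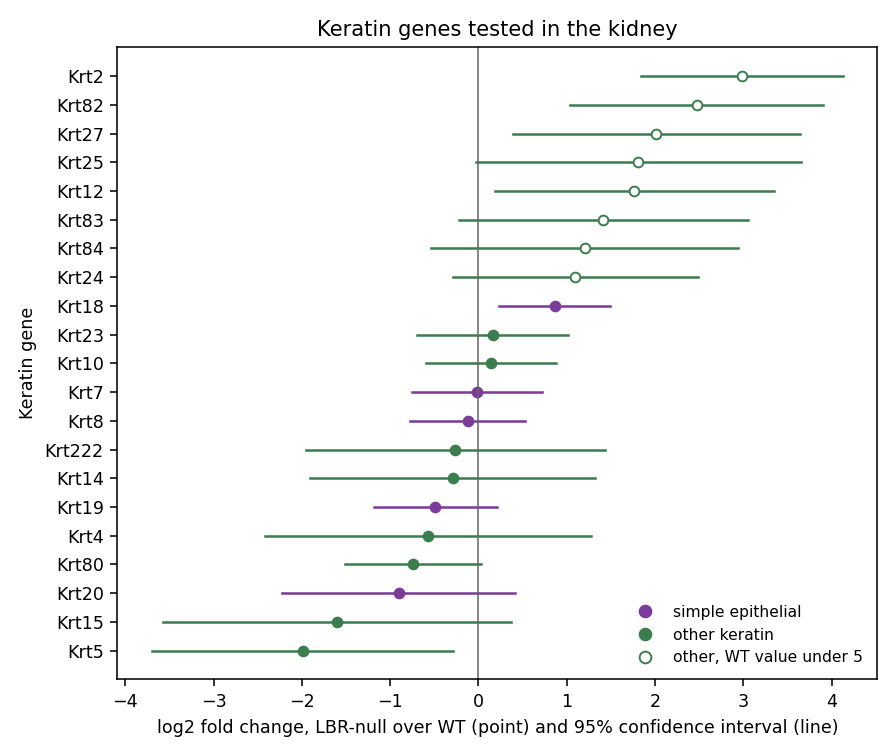
log2 fold change of LBR-null over WT with its 95% interval from limma for the 21 keratins tested, on log2(normalized counts + 1). Open points mark the 8 genes with a WT value under 5, whose direction was fixed by the filter on low values. Intervals leave out 0 for Krt18 and Krt5 and, among the open points, for Krt2, Krt82, Krt27 and Krt12.

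Genes that work with keratins were described from lists, each read against all genes with a WT value of at least 5, of which 6.83% were higher and 8.7% lower at an unadjusted limma p under 0.05 with a median log2 fold change of -0.04. Of 14 such genes of desmosomes and plakins, the junctions and linkers to which keratin filaments attach, 2 (Pkp2 and Eppk1) were higher and 0 lower, with a median of -0.12. The other 5 genes tested (Dsg1a, Dsg1b, Dsg1c, Dsg3 and Dsc3) had a WT value under 5, so their higher level was fixed by the filter. Over the whole list of 21 genes 6 lay above both WT libraries in all LBR-null libraries and 4 (Plec, Evpl, Pkp3 and Perp) below (22.2% and 21.4% of all genes did). Eppk1, the epiplakin that binds keratin filaments, was at 159, 106 and 123 normalized counts in LBR-null mice 4001, 4002 and 4007 against 29.1 (limma log2 fold change 2.09, adjusted p 0.0969, DESeq2 adjusted p 4.2e-04). Pkp2, a plakophilin of simple epithelia and heart, was at 3271, 1467 and 2783 against 825 (limma log2 fold change 1.52, adjusted p 0.156, DESeq2 adjusted p 0.0202). Both passed the adjusted threshold in DESeq2 alone, not in limma or edgeR. Plec, the plectin that links filaments to other structures, was at 995, 1513 and 1259.7 against 1965, and desmoplakin (Dsp), which joins keratins to the desmosome, at 2721, 3101 and 2545 against 2469.

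Of 8 epidermal genes with a WT value of at least 5, 2 (Krtdap and Sbsn) were higher at that p and 0 lower, with a median log2 fold change of 0.11. Lgals7, Dsg3 and Dsc3 were tested through their LBR-null values alone. Krtdap, a secreted protein of differentiating keratinocytes, was at 42.8, 27.5 and 27.7 normalized counts in LBR-null mice 4001, 4002 and 4007 against 5.92 (limma log2 fold change 2.25, adjusted p 0.114, DESeq2 adjusted p 0.0289). Sbsn, suprabasin, was at 201, 254 and 293 against 86.6 (limma log2 fold change 1.497, adjusted p 0.114, DESeq2 adjusted p 0.0083). Both passed the adjusted threshold in DESeq2 alone. Over the 13 epidermal genes in the files 5 were higher in each LBR-null library than in either WT library (22.2% of all genes were) and 3, Sfn, Ivl and Calml3, were lower (21.4%). The list sum was 722 to 902 in LBR-null and 827 and 828 in WT libraries, and Sprr1b was at 0. Of 12 keratin-associated proteins, the matrix of the hair shaft, 8 were at 0 in every library, none reached the filter, and their sum was 0.887 to 8.20 against 0 to 2.71. The part of skin or hair carried into the tissue in these values was not tested.

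Of 10 other cytoplasmic intermediate filaments with a WT value of at least 5, Prph, a chain of neurons, was higher at that p (16.8, 21.5 and 21.7 against 6.55) and Nes, a chain of progenitor and podocyte cells, was lower (535, 769.5 and 718 against 1552). Among the filaments tested DESeq2 called only Nes, as lower, and limma and edgeR called none. Ina, another neuronal chain, was tested through its LBR-null values alone. Vim, the vimentin of mesenchymal cells, was at 3526, 3054 and 2423 against 3704. Over the 13 genes 1 lay above both WT libraries throughout (22.2% of all genes did) and 4 below (21.4%). None of 10 regulators of keratin filaments reached that p, although Hspa8, a chaperone, and Sfn, a 14-3-3 protein, were lower in each LBR-null library than in either WT library. The collecting duct list, whose cells make KRT7 and KRT19, had 0 of 11 genes at that p (median log2 fold change -0.27). Of its genes 2 lay above both WT libraries throughout (22.2% of all genes did) and 0 below (21.4%).

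Of 12 kidney markers 0 were higher and 3 lower at that p, with a median log2 fold change of -0.46. The lower ones were Slc34a1 (14333, 29136 and 19644 normalized counts in mice 4001, 4002 and 4007 against 64099), Lrp2 (11985, 7019 and 5559.8 against 23320.0) and Cubn (4154, 2369 and 2382 against 5653), transport and uptake proteins of the proximal tubule. Aqp1, a water channel also of the proximal tubule, went the other way, at 37315, 22028 and 23239 against 17029, above both WT libraries throughout. Slc12a1, the salt carrier of the thick ascending limb, did so too, at 66848, 63792 and 37356 against 30771. Of the 12 markers 2 thus lay above (22.2% of all genes did) and 6 below (21.4%). Of 9 tubular injury genes tested, Cdkn1a was higher at that p (5234, 2401 and 3281 against 459). Vcam1 (359, 308 and 212 against 595), Spp1 (19513, 14767 and 13333 against 32325) and Clu (4558, 3360.1 and 3271 against 12244) were lower. Of these injury genes DESeq2, but not limma or edgeR, called Cdkn1a higher and Spp1 and Clu lower. Of the kidney markers DESeq2 alone called Slc34a1 and Lrp2 lower. Lcn2 was above both WT libraries in all LBR-null libraries, at 684, 293 and 564 against 227. Of the 10 injury genes in the files 3 lay above (22.2% of all genes did) and 3 below (21.4%).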

How the data were processed

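Kidney polyA RNA was sequenced as 150 bp paired-end reads in 7 libraries of 4 mice. Per the labels and the methods, the authors used STAR 2.6.0 for alignment to mm9 and divided gene counts by DESeq2 1.25.1 size factors. The counting program and annotation are not given in the sources used here. The deposited values are this normalized signal per gene symbol. In each library 100% of values were whole multiples of 1 read within 0.01 read, so whole reads were recovered. Libraries held 20694016 to 26333284 reads on genes, and intervals and floors cover counting error only.

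Libraries of a mouse were averaged. The labels call them replicates, but both come from 1 mouse, and p-values measure only the spread between 3 LBR-null mice. In R 4.3.3, limma 3.58.1 (eBayes with trend) fitted log2(normalized counts + 1) of 17283 genes whose mean reached 5, leaving 2 residual degrees of freedom, which assumes that the lone WT mouse varies as LBR-null mice do. Its fold changes understate those of low genes. Adjustment was by Benjamini-Hochberg, with calls at an adjusted p under 0.05 and 2-fold. On reads summed per mouse edgeR 4.0.16 (quasi-likelihood test) called 28 genes and DESeq2 1.42.0 called 1109, of which 533 were up. Scripts were tested on simulated data. Levels between genes used coding length in GENCODE vM1 (mm9). Ratios of pooled reads have exact 95% intervals.

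The members, role groups and lists were chosen with earlier results of these data known. Named were all simple keratins, others with a mean of at least 5, and those 2-fold changed without overlap and with a mean of at least 2. Of other lists, genes at an unadjusted p under 0.05 and abundant markers were named. Some others (Krt1, Krt16, Krt17, Krt13, Trp63, Psca, Foxa1, Sprr1a, Dsp, Plec, Evpl, Pkp3, Perp, Sfn, Ivl, Calml3, Vim, Hspa8, Aqp1, Slc12a1 and Lcn2) were named after their values were seen. Alternatives were pseudocounts of 0.5 and 5, no filter, TMM and equal totals, both count tests, each mouse and second library left out, 5 counts added, and spliced length, the last chosen after seeing the data. Promoter windows came from RefSeq (build GRCm38.p6) and were placed on mm9 by exact match with Python 3.11.15.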

Additional observations from a re-analysis of the deposited data

Results flagged for a closer look

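Among 23 named keratins, 3 had 1 of the 5 LBR-null libraries far from the others, and in each it was the library of mouse 4002. Krt23 was at 420.4 normalized counts there, against 247 to 293 in the other LBR-null libraries and 275 and 286 in WT libraries. Krt15 was at 234, against 44.8 to 80.2 and, in WT, 270.5 and 319.7. Krt5 was at 148, against 37.3 to 62.9 and, in WT, 269 and 282. Chance marks about 1 in 20 groups of independent samples, but these libraries are not independent. Mice 4001 and 4007 gave 2 libraries each, so a difference between mice is more easily marked in mouse 4002, which gave 1. Mouse 4002 shared its low Xist and high Ddx3y with the WT mouse, and the part of this in the 3 values was not tested.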

How the results depend on the processing

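No paired analysis was possible because the replicate numbers in the labels name libraries of 1 mouse and do not pair LBR-null with WT mice. No keratin count and no summed level changed by over 1.5 times under TMM or equal totals. With 5 normalized counts added, 4 keratins were 2-fold up and 2 down (8.89% and 5% of all genes), and among those with a mean of at least 5, 8 were up and 2 down (14.5% and 7.04%). DESeq2 called 1 keratin and put 2 lower at an unadjusted p under 0.05. Leaving out a mouse or library gave 0 to 3 called keratins (Krt2 without mouse 4001, and Krt2, Krt5 and Krt15 without mouse 4002, where 1163 and 625 of all genes were called), 2 to 7 higher and 1 to 2 lower at an unadjusted p under 0.05, 17 to 27 up and 4 to 8 down by 2-fold, and 9 to 14 above and 6 to 12 below WT without overlap. The lowest count of higher keratins, 2, came without mouse 4007, the 14 above without mouse 4001, and the 12 below without WT library 1. With all mice, 10.7% of all genes were higher and 8.05% lower at that p, and 22.7% were 2-fold up and 8.8% down. Without overlap 22.2% lay above and 21.4% below. These shares are not given for each omission, so the ranges are a description. Without mouse 4002, genotype and the sex-linked difference cannot be told apart. Krt18 over Krt8, LBR-null over WT, was 1.998 and 1.90 to 2.17 when a mouse was left out, and the type I to type II balance was 1.61 (1.52 to 1.77), or 1.67 by spliced length. Small log2 fold changes turned sign. Over these omissions Krt14 ran from -0.70 to 0.14 (without mouse 4007), Krt222 from -0.69 to 0.15 and Krt23 from -0.053 to 0.28 (both turned without mouse 4002), and Krt7 from -0.16 to 0.070, with 0.044 without mouse 4001 and 0.028 without 1 of its libraries. The cause was not tested. One WT library moved the fold of Krt84, Krt24, Krt82, Krt27 and Krt2 by over 1.5 times, with values in the text above. Depth limits the hair keratins, many of which rest on under 20 WT reads in all.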
